A study of Homo sapiens with 19 samples.

Results

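Transcript levels in H1 hESCs that lack SUZ12, the scaffold subunit of polycomb repressive complex 2 (PRC2), were compared with those in H1 hESCs that lack both catalytic subunits, EZH1 and EZH2. RNA-seq was the assay, and H1 is a long-established line of human embryonic stem cells (hESCs). Members were taken by genotype label: 2 samples labelled SUZ12 knockout and 2 samples labelled EZH1 and EZH2 knockout, which makes 4 of the 19 samples of the series. The 2 samples labelled EED knockout and the 2 control samples are given beside them, as EED-/- H1 and WT H1. The 2 samples labelled EZH1 knockout and the 2 labelled EZH2 knockout, as EZH1-/- H1 and EZH2-/- H1, enter only the fit and the spread between samples. No treatment is given in the labels for these samples, and the methods name mTeSR1 medium on matrigel as the culture of H1 and of the knockout lines. Each gene was targeted with Cas9 and a vector that removed a functional domain and brought in a drug resistance cassette flanked by LoxP sites. For the double knockout, the paper describes a further round. The cassette of a line lacking 1 EZH gene was removed with Cre, and the other EZH gene was then targeted. Effects of this further round cannot be told apart from those of genotype. The 2 samples of a line have titles that end in different numbers. The study describes at least a pair of clones for each gene, and the labels do not say which clone or culture each sample came from. The p-values use 1 variance per gene, pooled over the 12 samples of 6 lines fitted together. They therefore measure the spread within all these lines and not within the 2 compared lines alone, and this spread may be technical. A gene was tested where it reached 1 TPM (transcripts per 1000000, a level scaled to gene length and to the whole library) in at least 2 of the 4 samples. This left 17400 of 33382 genes.

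PRC2 places methyl groups on lysine 27 of histone H3, a mark of silent developmental genes. EZH1 and EZH2 are alternative carriers of the methyltransferase domain, SUZ12 holds the complex together and binds accessory subunits, and EED binds the finished mark. Loss of SUZ12 takes away the part on which the complex is assembled, whereas loss of both EZH proteins takes away its enzymes. In human embryonic stem cells, genes that specify tissues carry the mark while POU5F1, NANOG and SOX2 hold the pluripotent state.

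By the median difference over genes, the 2 SUZ12-/- samples were the closest pair of the 6 lines and the 2 EZH2-/-/EZH1-/- samples the furthest apart. The median absolute difference between the 2 samples of a line, on the log2(TPM + 1) scale, was 0.123 for the SUZ12-/- samples and 0.518 for the EZH2-/-/EZH1-/- samples, and lay between 0.158 and 0.36 in the other 4 lines. Other measures placed the SUZ12-/- pair beside WT H1 and EZH1-/- H1: 41 genes differed at least 3-fold between the SUZ12-/- samples, against 24 between those of EZH1-/- H1, 27 between those of WT H1 and 1046 between those of EZH2-/-/EZH1-/- H1. Among genes with a mean over 100 TPM, the same medians were 0.058 and 0.42. The deposited values hold no read counts, so depth per sample is unknown and it could not be tested whether the SUZ12-/- samples differ by more than sampling noise. The first EZH2-/-/EZH1-/- sample lay nearer to SUZ12-/- H1, with median absolute differences of 0.401 and 0.402, than the second, with 0.639 and 0.627. Each main count below is therefore also given without each sample. The number of genes above 0 ranged from 22194 to 23012 in the 4 samples.

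**Figure D1:**
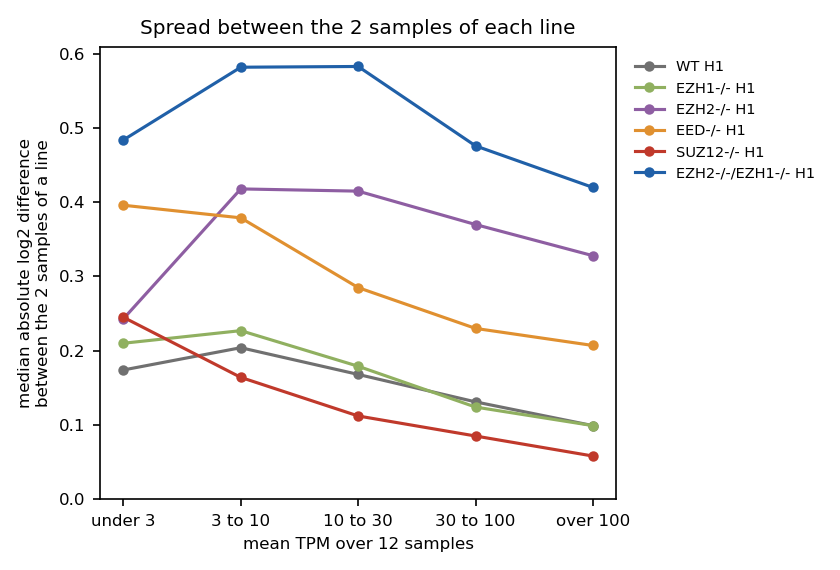
Median absolute log2(TPM + 1) difference between the 2 samples of each of 6 lines (y axis) in 5 bins of mean TPM over 12 samples (x axis), for the 17400 tested genes. EZH2-/-/EZH1-/- H1 lies highest in every bin, and SUZ12-/- H1 falls from 0.245 under 3 TPM to 0.058 over 100 TPM.

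RNA of the targeted genes was still present in every line. SUZ12 stood at 22.9 and 20.8 TPM in the SUZ12-/- samples, 18.6 and 12.6 TPM in the EZH2-/-/EZH1-/- samples, and 25.2 and 27.9 TPM in WT H1. EZH2 was at 16.9 and 13.96 TPM in the SUZ12-/- samples and 31.3 and 20.0 TPM in the EZH2-/-/EZH1-/- samples, against 54.6 and 58.9 TPM in WT H1. For EZH1 the 4 levels were 12.1, 13.3, 9.37 and 6.78 TPM, and for EED they were 27.03, 26.1, 21.5 and 23.2 TPM. SUZ12, EZH1 and EED were higher and EZH2 lower in the SUZ12-/- samples, without overlap. A lack of overlap, in either direction, was found at 55.9% of all tested genes. None of the 4 passed the test between the lines, with adjusted p from 0.165 to 0.557 (limma, fitted across all genes). A whole-gene total cannot show the loss of a domain, so these values do not check the genotypes, which are taken from the labels. For these lines the paper reports genomic PCR, qRT-PCR of the targeted genes, and western blots of SUZ12, EZH1 and EZH2. It also reports that trimethylation of H3K27 was abolished in both.

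The cells are labelled embryonic stem cells, but their defining markers were low in both lines. The paper reports that both lines differentiated gradually and without induction, toward mesoderm and endoderm. The labels give no day or passage for these samples, so stage at harvest cannot be told apart from genotype. POU5F1 was at 91.0 and 47.0 TPM in the SUZ12-/- samples and 123.1 and 149.8 TPM in the EZH2-/-/EZH1-/- samples, against 2531 and 2428 TPM in WT H1. The lines did not overlap, and the difference of -1.04 (log2, SE 0.269) had an adjusted p of 0.0234, outside the 1% threshold. NANOG was at 5.31 and 3.36 TPM with SUZ12 lost and at 8.10 and 5.80 TPM with both EZH genes lost, and at 140.4 and 97.5 TPM in WT H1. SOX2 levels of 10.3 and 9.17 TPM fell inside the 7.09 and 24.5 TPM of the EZH2-/-/EZH1-/- samples. The 19 pluripotency genes of the list that are in the files summed to 414 and 312 TPM in the SUZ12-/- samples, 627 and 447 TPM in the EZH2-/-/EZH1-/- samples and 6198 and 6475 TPM in WT H1. Of the 18 tested, 0 were called in either direction, and the median difference was 0.01.

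A gene was called where its limma p, adjusted by Benjamini-Hochberg over the 17400 tested genes, was at most 0.01 and the lines differed at least 3-fold on the log2(TPM + 1) scale, a scale that understates the change of low genes. SUZ12-/- H1 differed from EZH2-/-/EZH1-/- H1 at 888 genes, or 5.1% of those tested. Of these, 658 were higher in SUZ12-/- H1 (3.78%) and 230 were lower (1.32%). The counts of each gene list, also counts of 0, are to be read beside these shares. All 888 were without overlap between the 2 lines, which was true of 55.9% of all tested genes. The median difference over all tested genes was 0.06 (log2), and its sign depended on the EZH2-/-/EZH1-/- sample: it was -0.089 and -0.119 for the 2 SUZ12-/- samples against the first and 0.264 and 0.234 against the second, so list medians of this size are not read as a shift. Leaving out the first or second SUZ12-/- sample gave 397 and 71, or 401 and 78, genes higher and lower. Leaving out the first EZH2-/-/EZH1-/- sample gave 1310 and 388, and leaving out the second gave 505 and 238. A fit of only the 4 samples called 22 genes higher and 2 lower, and a fit that weighted each line by its own spread called 424 and 105, all of them among the 888.

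**Figure D2:**
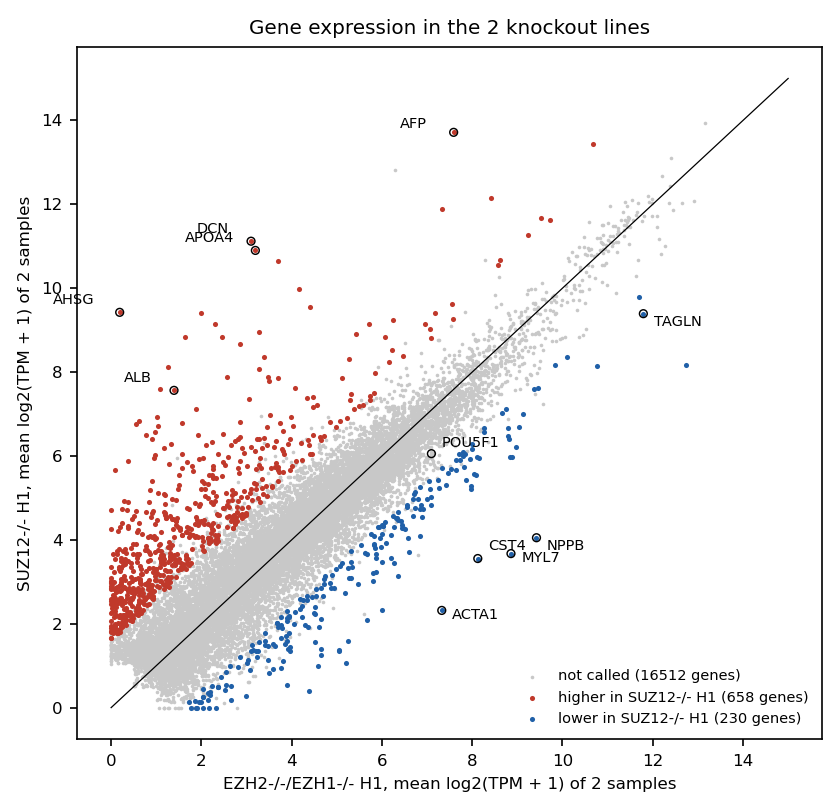
Mean log2(TPM + 1) of the 2 EZH2-/-/EZH1-/- samples (x axis) against that of the 2 SUZ12-/- samples (y axis) for 17400 genes, with the line of equality. Red points are the 658 genes called higher and blue points the 230 called lower in SUZ12-/- H1, and AFP is the highest red point.

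EED-/- H1 lacks the third core subunit of PRC2 and gives a level to set beside the called genes. By the same rule SUZ12-/- H1 differed from EED-/- H1 at 1175 genes (6.75%), and EZH2-/-/EZH1-/- H1 differed from EED-/- H1 at 18 genes (0.103%). These comparisons share samples with the main one and are given side by side. Both EED-/- samples lay below both SUZ12-/- samples at 650 of the 658 higher genes, against 27.4% of all tested genes, and above them at 219 of the 230 lower genes, against 43.2%. The SUZ12-/- values helped to choose these genes, and both WT H1 samples likewise lay below both SUZ12-/- samples at 632 of the 658 higher genes, so these shares are a description. Of the 230 lower genes, both WT H1 samples lay above both SUZ12-/- samples at 76. The median level of the 658 higher genes was 15.1 TPM in SUZ12-/- H1, 1.5 TPM in EZH2-/-/EZH1-/- H1, 1.93 TPM in EED-/- H1 and 0.393 TPM in WT H1. That of the 230 lower genes was 7.69 TPM in SUZ12-/- H1, 39.6 TPM in EZH2-/-/EZH1-/- H1, 39.9 TPM in EED-/- H1 and 4.13 TPM in WT H1.

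Genes for secreted proteins of liver and yolk sac endoderm made up the strongest group. Of 28 tested members, 22 were called higher in SUZ12-/- H1 and 0 lower (78.6% called, against 5.1% of all tested genes). The median difference was 3.50 (log2) against 0.06 over all tested genes. The 28 genes summed to 30170 and 31280 TPM in the SUZ12-/- samples and 4504 and 5285 TPM in the EZH2-/-/EZH1-/- samples, against 2922 and 6562 TPM in EED-/- H1 and 979 and 1158 TPM in WT H1. Between 18 and 22 of the calls were kept when 1 sample was left out, and 6 were kept in the fit of only 4 samples. In bulk RNA, fewer cells of a type and less RNA per cell cannot be told apart.

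AFP, the alpha-fetoprotein of fetal liver and yolk sac, was the most abundant of them. It reached 13208 and 13695 TPM in the SUZ12-/- samples, 201 and 183 TPM in the EZH2-/-/EZH1-/- samples and 163 and 768 TPM in EED-/- H1. This was a difference of 6.13 (log2, SE 0.524, 95% interval 4.97 to 7.28, adjusted p = 2.6e-05 by limma). ALB, the serum albumin gene next to AFP on chromosome 4, was at 184 and 193 TPM against 1.91 and 1.37 TPM, a difference of 6.17 (SE 0.308, adjusted p = 1.4e-06). Both genes were called in every alternative tried. AHSG, which encodes the plasma glycoprotein fetuin-A, showed the largest difference of all genes, at 673 and 699.6 TPM against a listed 0 and 0.30 TPM (9.24, SE 0.633).

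The sequences before the starts of 4 genes are shown because these genes carry the contrast in both directions and have short motifs of factors active in liver or of the core promoter. Each is the 250 bases before the RefSeq start on GRCh38.p14, in the direction of the gene, and capitals mark a motif on either strand. GTTAAT is one arm of the palindromic site of HNF1, a liver transcription factor. For the factors of the GATA family the letters searched were AGATAA. For the TATA box of the core promoter they were TATAAA.
AFP, chr4:73435971-73436220, plus strand: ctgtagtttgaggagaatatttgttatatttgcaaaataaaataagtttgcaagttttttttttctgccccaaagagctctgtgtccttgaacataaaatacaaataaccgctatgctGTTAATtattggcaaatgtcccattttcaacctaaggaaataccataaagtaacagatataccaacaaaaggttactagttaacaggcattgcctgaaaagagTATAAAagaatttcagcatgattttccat
ALB, chr4:73404037-73404286, plus strand: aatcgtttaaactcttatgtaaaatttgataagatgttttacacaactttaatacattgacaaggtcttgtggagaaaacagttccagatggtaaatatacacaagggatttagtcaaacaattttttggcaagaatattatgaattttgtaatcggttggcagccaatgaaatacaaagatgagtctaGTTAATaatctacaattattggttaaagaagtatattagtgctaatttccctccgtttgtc
FABP1, chr2:88128063-88128312, minus strand: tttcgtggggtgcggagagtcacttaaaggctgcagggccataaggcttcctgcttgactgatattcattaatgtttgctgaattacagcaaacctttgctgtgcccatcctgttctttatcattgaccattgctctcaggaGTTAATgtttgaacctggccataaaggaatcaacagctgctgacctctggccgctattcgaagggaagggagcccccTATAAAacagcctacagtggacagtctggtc
ACTA1, chr1:229434095-229434344, minus strand: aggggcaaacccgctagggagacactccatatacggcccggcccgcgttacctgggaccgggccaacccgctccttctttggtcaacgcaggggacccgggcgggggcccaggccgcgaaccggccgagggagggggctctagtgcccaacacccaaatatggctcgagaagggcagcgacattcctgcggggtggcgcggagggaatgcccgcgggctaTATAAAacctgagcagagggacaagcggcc
AFP, ALB and FABP1, which were higher in SUZ12-/- H1, each hold GTTAAT, 132, 61 and 108 bases before the start, counted to the first base of the match. TATAAA stands 29 bases before the start in AFP, 31 in FABP1 and 30 in ACTA1, which was lower. Of the 12 genes with the largest higher differences, 9 had a promoter in the table and 3 of these held GTTAAT, as did 5 of 23 promoters of the liver and yolk sac list, against 6.23% of all 35116 promoters. GTTAAT was also found in 1 of the 9 promoters of the genes with the largest lower differences, that of PCDHB5. AGATAA was found in 2 of the 9 higher promoters, in 5 of the 23 and in 0 of the 9 lower ones, against 9.17% of all. TATAAA was found in 2 of the 9 higher promoters, in 1 of the 23 and in 4 of the 9 lower ones, against 10.7% of all. The 3 sets of letters do not overlap in the printed promoters, and a match is a description of the sequence only.

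Apolipoproteins carry lipids in plasma, and 6 of the 9 on the list were called higher. APOA4 was at 1878 and 1943 TPM in the SUZ12-/- samples and 10.7 and 6.18 TPM in the EZH2-/-/EZH1-/- samples (7.71, SE 0.361, adjusted p = 9.6e-07 by limma). APOC3, its neighbour on chromosome 11, was at 458 and 459 TPM against 1.30 and 3.25 TPM (7.2, SE 0.547). APOA1, in the same cluster, was already at 875 and 814 TPM in EZH2-/-/EZH1-/- H1 and reached 3036 and 3267 TPM in SUZ12-/- H1 (1.90, SE 0.280), so the cluster did not change by one common factor. The call of APOA1 was lost without either SUZ12-/- sample. APOB, the main protein of low density lipoprotein, was at 191 and 201 TPM against 29.97 and 8.18 TPM, and MTTP, which loads lipid onto it, at 59.6 and 61.2 TPM against 6.97 and 1.10 TPM. TTR, APOA2, APOE, APOC1, CUBN and SPP2 were the 6 members that were not called. TTR, the thyroxine carrier, was at 2997 and 3080 TPM against 1369 and 1746 TPM.

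Fibrinogen, the clotting protein built from 3 chains, has its genes side by side on chromosome 4, and all 3 were called higher. FGB was at 1003 and 1022 TPM in the SUZ12-/- samples against 35.5 and 7.87 TPM in the EZH2-/-/EZH1-/- samples. FGG was at 576 and 551 TPM against 9.52 and 1.31 TPM, and FGA at 396 and 412 TPM against 22.4 and 1.24 TPM. The SUZ12-/- levels hardly varied, while the 2 EZH2-/-/EZH1-/- samples differed several-fold in each chain, and the calls of FGA and FGB were lost without either SUZ12-/- sample, and that of FGB also without the second EZH2-/-/EZH1-/- sample. SERPINA1, the elastase inhibitor alpha-1-antitrypsin, was at 1592 and 1623 TPM against 7.01 and 20.2 TPM. RBP4, the plasma carrier of retinol, was at 499 and 492 TPM against 11.3 and 6.52 TPM. The other called members, VTN, AMBP, HPX, APOM, APOH, TF, LGALS2, ITIH2 and AMN, differed by 1.61 (AMN) to 4.04 (AMBP) on the log2 scale.

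Of the further genes with the largest differences, FABP1, AGT, MUC13 and CFI were also products of liver or gut. FABP1, the liver fatty acid binding protein, was at 264 and 291 TPM in the SUZ12-/- samples and 2.06 and 0.88 TPM in the EZH2-/-/EZH1-/- samples (6.86, SE 0.523). AGT, which encodes angiotensinogen, was at 194 and 189 TPM against 1.11 and 1.13 TPM. MUC13, a membrane mucin of the gut, was at 116 and 112 TPM against 0.19 and 0.96 TPM, and CFI, a protease that limits complement, at 106 and 109.7 TPM against 0.90 and 0.13 TPM. In all 4 genes the EED-/- samples, at 0.53 to 5.26 TPM, lay near the EZH2-/-/EZH1-/- samples. PTGDS, a prostaglandin D2 synthase and lipid carrier, was at 458 and 452 TPM against 3.62 and 5.43 TPM.

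No member of the list of endoderm transcription factors used here was called. Of 17 tested, 0 passed the rule, the median difference was -0.10 (log2), and 8 lay above 0 and 9 below. GATA5 and CEBPA, endoderm and liver factors off that list that were picked after their values were seen, were called higher, at 9.55 and 10.1 TPM against 2.37 and 2.06 TPM for GATA5 and 28.0 and 30.6 TPM against 6.47 and 3.88 TPM for CEBPA. Neither was called without the second SUZ12-/- sample. NR1H4 and CREB3L3, liver regulators also off that list and also picked afterwards, passed the rule too. Their calls were each kept in 15 of the alternatives tried. HNF4A, a nuclear receptor that drives many liver genes, was at 25.8 and 26.7 TPM in the SUZ12-/- samples, between the 33.8 and 11.7 TPM of the EZH2-/-/EZH1-/- samples (0.38, 95% interval -0.50 to 1.25). GATA6 was at 27.7 and 27.7 TPM against 42.8 and 20.5 TPM, and GATA4 at 68.7 and 69.4 TPM against 124 and 75.2 TPM. SOX17 was at 16.0 and 15.5 TPM against 64.1 and 33.5 TPM, a difference of -1.51 (SE 0.310, adjusted p = 0.0076 by limma) that passed the p and not the 3-fold cutoff. All 4 were at or under 0.16 TPM in WT H1. The sum over the 18 listed factors was 239 and 236 TPM in the SUZ12-/- samples and 423 and 232 TPM in the EZH2-/-/EZH1-/- samples.

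Matrix genes of fibroblast-like mesenchyme differed in both directions. Of 33 tested extracellular matrix genes, 8 were called higher and 2 lower (30.3% called, against 5.1% of all tested genes). The median difference was 0.64 (log2). DCN, a small proteoglycan that binds collagen, was at 2165 and 2287 TPM in the SUZ12-/- samples and 10.7 and 5.26 TPM in the EZH2-/-/EZH1-/- samples (8.02, SE 0.306, adjusted p = 3.8e-07 by limma). LUM, its neighbour on chromosome 12 and a proteoglycan of the same family, was at 4637 and 4406 TPM against 318 and 369 TPM. Both were called in every alternative. FMOD, a further proteoglycan of this family, was at 234 and 238 TPM against 7.34 and 3.19 TPM. COL3A1, a fibril collagen, was among the most abundant transcripts at 11279 and 11055 TPM against 2774 and 961 TPM. The main fibril collagen genes COL1A1 and COL1A2 were not called, at 2397 and 2397 TPM against 1798 and 1133 TPM for COL1A1.

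COL14A1, COL15A1, COL6A2 and LAMA2 completed the higher matrix genes, with differences from 1.99 (COL6A2) to 3.73 (LAMA2). The calls of COL6A2 and COL15A1 were lost without either SUZ12-/- sample, and that of COL6A2 also without the second EZH2-/-/EZH1-/- sample. LAMA1, the laminin chain of early basement membranes, was lower, at 99.0 and 90.4 TPM against 286 and 331 TPM. COL11A1, a minor fibril collagen of cartilage, was also lower, at 118 and 137 TPM against 701 and 444 TPM. MGP, an inhibitor of calcification in matrix that was not on the list, was at 636 and 724 TPM in the SUZ12-/- samples and 2.82 and 3.20 TPM in the EZH2-/-/EZH1-/- samples (7.41, SE 0.269).

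Of 13 tested mesenchyme and epithelial-mesenchymal transition genes, 4 were called higher and 1 lower (median 0.90). This was 38.5% called, against 5.1% of all tested genes. SNAI2, a transcriptional repressor of epithelial genes, was at 89.6 and 88.2 TPM in the SUZ12-/- samples against 29.1 and 15.5 TPM. PDGFRA, a growth factor receptor of mesenchyme, was at 55.5 and 55.6 TPM against 15.8 and 8.43 TPM, and ZEB2 at 64.5 and 65.0 TPM against 26.3 and 16.5 TPM. CDH2, the N-cadherin gene, was lower, at 72.6 and 68.2 TPM against 313 and 204 TPM. Of these calls, 0 of the 5 were kept without either SUZ12-/- sample, 3 without the first EZH2-/-/EZH1-/- sample and 2 without the second. Epithelial genes gave 0 calls among 18 tested (median -0.31). KRT8 and KRT18, the keratin pair of simple epithelia, passed the p and not the fold, with KRT8 at 1781 and 1832 TPM against 5196 and 4174 TPM.

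Of 17 tested cardiac genes, 3 were called higher and 2 lower in SUZ12-/- H1 (median -0.02). This was 29.4% called, against 5.1% of all tested genes. The 3 higher ones encode transcription factors of the early heart field. HAND1 was at 139 and 147 TPM in the SUZ12-/- samples and 31.6 and 13.97 TPM in the EZH2-/-/EZH1-/- samples (2.70, SE 0.358), and HAND2 at 167 and 170.1 TPM against 29.0 and 15.4 TPM (2.93, SE 0.298). TBX20 was at 22.4 and 21.4 TPM against 4.40 TPM and a listed 0, and its call was lost without either SUZ12-/- sample. The 2 lower ones encode products of the heart muscle cell. NPPB, which encodes a natriuretic peptide, was at 16.8 and 14.4 TPM against 634 and 742 TPM (-5.37, SE 0.478, adjusted p = 3.4e-05 by limma), the largest lower difference of all genes. MYL7, the atrial myosin light chain, was at 14.5 and 9.46 TPM against 371 and 579 TPM (-5.19, SE 0.612). EED-/- H1, at 247 and 438 TPM for NPPB and 210.1 and 375 TPM for MYL7, was on the side of EZH2-/-/EZH1-/- H1.

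The called actin and smooth muscle genes were lower in SUZ12-/- H1 with 1 exception. ACTA1, the skeletal alpha-actin, was at 4.32 and 3.67 TPM against 78.4 and 323 TPM, and was also below the 37.0 and 35.2 TPM of WT H1. Of 13 tested smooth muscle contractile genes, 3 were called lower and 1 higher (median -0.50). This was 30.8% called, against 5.1% of all tested genes. ACTA2, the smooth muscle alpha-actin, was at 326 and 334 TPM against 990 and 1218 TPM. TAGLN, which encodes the actin-binding transgelin, was at 667 and 675 TPM against 3154 and 3982 TPM, and CNN1, the calponin gene, at 24.0 and 21.4 TPM against 96.3 and 109.9 TPM. CNN1 in SUZ12-/- H1 was below its WT H1 levels of 28.2 and 32.8 TPM, while TAGLN and ACTA2 were above theirs. The exception was DES, the desmin gene, at 133 and 144 TPM against 2.21 and 3.20 TPM (5.25, SE 0.271). TAGLN was no longer called without either SUZ12-/- sample or the second EZH2-/-/EZH1-/- sample, and ACTA2 without the second EZH2-/-/EZH1-/- sample, so that 1 of the 3 lower calls remained without that sample.

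Of the largest lower differences, 2 were at genes of secreted cystatins, inhibitors of cysteine proteases. CST1 was at 274 and 300.4 TPM in the SUZ12-/- samples, 8377 and 5630 TPM in the EZH2-/-/EZH1-/- samples and 2171 and 7977 TPM in EED-/- H1. CST4 was at 10.7 and 10.8 TPM against 252 and 306 TPM. These genes are near copies of each other on chromosome 20, and reads may have been split between them, as between PRSS1 and PRSS2, the trypsinogens. PRSS2 was at 4.29 and 3.78 TPM against 29.2 and 133 TPM, and PRSS1 at 2.96 and 1.29 TPM against 18.5 and 73.7 TPM. The calls of PRSS1, PRSS2 and the hair keratin partner KRTAP3-1 were lost without either SUZ12-/- sample or the second EZH2-/-/EZH1-/- sample.

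CEBPZOS, BEX5 and PCDHB5 were among the 76 lower genes at which both SUZ12-/- samples also lay below both WT H1 samples. CEBPZOS was at 1.32 and 0.87 TPM in the SUZ12-/- samples, 31.3 and 41.2 TPM in the EZH2-/-/EZH1-/- samples and 60.6 and 50.2 TPM in WT H1. It overlaps CEBPZ on the opposite strand, and how reads were assigned by strand is not given in the sources used here. CEBPZ itself was at 59.8 and 50.3 TPM against 48.5 and 62.6 TPM. BEX5 was at 1.59 and 1.55 TPM against 22.3 and 46.0 TPM, with 16.3 and 14.8 TPM in WT H1. PCDHB5, a clustered protocadherin of neural cell surfaces, was at 0.64 and 0.04 TPM against 22.1 and 17.6 TPM, with 7.08 and 2.75 TPM in WT H1. It was 1 of 2 calls among 30 tested clustered protocadherins, and the other, PCDHAC2, was higher. This share of 6.67% was near the 5.1% of all tested genes.

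CDKN2B, an inhibitor of the G1 cell cycle kinases and a classic PRC2 target, was lower in SUZ12-/- H1. Its levels were 38.3 and 34.1 TPM in the SUZ12-/- samples, 258 and 243 TPM in the EZH2-/-/EZH1-/- samples, 562 and 428 TPM in EED-/- H1, and 0.13 and 0.10 TPM in WT H1 (-2.76, SE 0.240, adjusted p = 2.8e-05 by limma). CDKN2B-AS1, the antisense transcript over the same locus on chromosome 9, was at 3.84 and 2.77 TPM against 42.9 and 58.6 TPM, and reads of an overlapping pair may not be told apart. CDKN2A, beside them, was at 109.3 and 126 TPM against 335 and 586 TPM and did not pass the test (adjusted p = 0.0367). CDKN1C, an imprinted inhibitor of the same kinases, was higher, at 577 and 556 TPM against 134 and 112 TPM, a call that was lost without the first SUZ12-/- sample. Of the 12 cell cycle inhibitors and G1 cyclins these were the 2 called (16.7%, against 5.1% of all tested genes). Of 21 replication and mitosis genes, 0 were called (median 0.36).

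Imprinted genes gave 4 higher and 0 lower calls among 22 tested (18.2%, against 5.1% of all tested genes, median 0.73). DLK1, a paternally expressed Notch-family ligand, was at 3771 and 3834 TPM in the SUZ12-/- samples and 241 and 107 TPM in the EZH2-/-/EZH1-/- samples (4.55, SE 0.427). RTL1, in the same imprinted cluster on chromosome 14, was at 8.84 and 9.74 TPM against 0.57 and 0.18 TPM. IGF2, the fetal growth factor, was at 3207 and 3285 TPM against 848 and 633 TPM. H19, the noncoding RNA next to IGF2, was at 7135 and 7400 TPM in the SUZ12-/- samples against 112 and 53.0 TPM. Its difference of 6.54 had an SE of 1.92 and an adjusted p of 0.0417, and the 2 EED-/- samples were at 488 and 0.27 TPM. The SE pools the spread within all lines fitted, among them the EED-/- samples. H19 was therefore not called, although the 2 lines were far apart.

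Interferon-induced and antigen presentation genes were mostly higher: 8 of 24 were called higher and 1 lower (median 1.03). This was 37.5% called, against 5.1% of all tested genes. B2M, the light chain of MHC class I, was at 1630 and 1636 TPM in the SUZ12-/- samples against 403 and 379 TPM. IFITM3, an antiviral membrane protein, was at 773 and 807 TPM against 193 and 179 TPM, and IFI6 at 55.1 and 47.8 TPM against 5.03 and 7.15 TPM. IFIT1, IFIT3, PSMB8, HLA-F and HLA-G were also higher, and the HLA values are uncertain because these genes are similar in sequence. ISG15, a ubiquitin-like product of the same response, went the other way, at 63.7 and 66.3 TPM against 157 and 330.2 TPM. The 9 calls fell to 5 without either SUZ12-/- sample and to 5 without the second EZH2-/-/EZH1-/- sample. B2M was no longer called when any 1 of the 4 samples was left out.

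Among trophoblast and amnion genes, 6 of 16 were called higher and 0 lower (37.5%, against 5.1% of all tested genes, median 1.25). IGFBP3, which binds insulin-like growth factors, was at 2439 and 2515 TPM in the SUZ12-/- samples against 581 and 619 TPM. GABRP, a GABA receptor subunit of amnion, was at 234 and 238 TPM against 37.7 and 2.23 TPM, near its WT H1 levels of 246 and 288 TPM. VTCN1, HSD3B1, EPAS1 and XAGE2 were the other calls. Of the transcription factors that define trophoblast, CDX2 and GATA3 were not called: CDX2 was at 5.90 and 7 TPM against 18 and 3.70 TPM, and GATA3 at 18.3 and 21.4 TPM against 36.4 and 20.4 TPM. The 6 calls fell to 2 without either SUZ12-/- sample and to 4 without the second EZH2-/-/EZH1-/- sample.

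Of 17 tested neural ectoderm genes, 2 of the 3 called were lower (17.6% called, against 5.1% of all tested genes, median -0.64). NES, the nestin gene, was at 49.2 and 45.6 TPM in the SUZ12-/- samples against 184 and 167 TPM, and TUBB3, a neuronal tubulin, at 49.4 and 43.1 TPM against 183 and 380.3 TPM. Both were also below WT H1, where NES was at 97.8 and 87.9 TPM and TUBB3 at 269 and 340.3 TPM.

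In the signalling pathways the called genes were mainly secreted ligands and antagonists, which also make up much of these lists, so no preference is read from this. Of 31 BMP pathway genes, 3 were called higher and 1 lower (12.9%, against 5.1% of all tested genes, median 0.34). The ligand BMP6 was lower, at 7.57 and 6.64 TPM in the SUZ12-/- samples against 125 and 23.4 TPM, and the ligand GDF10 was higher, at 16.3 and 15.5 TPM against 2.51 and 2.79 TPM. The antagonist CHRD was higher by 1.85 (log2). BMP4, the main ligand by level, was at 139 and 135 TPM against 293 and 121 TPM, and ID1, a direct target of the pathway, at 252 and 258 TPM against 348 and 243 TPM. Of the 4 calls, that of GDF10 alone was kept without either SUZ12-/- sample. Without the first EZH2-/-/EZH1-/- sample 8 genes of the list were called higher, and without the second 1 was.

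Of 37 WNT pathway genes, 3 were called higher and 1 lower (10.8%, against 5.1% of all tested genes, median -0.39). The inhibitors FRZB and SFRP5 and the agonist RSPO2 were higher, with RSPO2 at 102.2 and 102.2 TPM against 17.99 and 5.25 TPM. The inhibitor DKK1 was lower, at 78.0 and 75.3 TPM against 310.3 and 211 TPM. In the NODAL and activin pathway 1 of 13 genes was called (7.69%, against 5.1% of all tested genes). It was the activin antagonist FST, lower at 73.9 and 73.0 TPM against 301 and 824 TPM. None of these 5 calls was kept without either SUZ12-/- sample. The FGF pathway gave 0 calls among 20 (median 0.33), with FGFR1 at 99.4 and 101 TPM against 256 and 66.8 TPM.

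Several of the remaining lists are short, so a count of 0 or 1 on them says little beside the share of 5.1%. HOX genes gave 0 calls among 36 tested (median -0.42). HOXD10, at 14.9 and 15.8 TPM against 39.7 and 41.5 TPM, passed the p and not the fold. So did HOXB6, at 13.4 and 16.9 TPM against 43.0 and 32.5 TPM. The sum over HOX genes was 359 and 378 TPM in the SUZ12-/- samples, 542 and 588 TPM in the EZH2-/-/EZH1-/- samples and at most 0.42 TPM in WT H1. The lists of PRC2 core subunits (0 of 6), PRC2 accessory subunits (0 of 6), PRC1 subunits (0 of 18), enzymes of H3K27 demethylation and DNA methylation (0 of 10) and germline genes (0 of 6) held no call. ZNF genes gave 2 higher and 1 lower call among 461 (0.651%, against 5.1% of all tested genes). FOXC2, a factor of paraxial mesoderm, was the 1 call of 12 on its list (8.33%). It was lower, at 1.33 and 1.78 TPM against 17.8 and 11.9 TPM. Remaining calls on lineage lists were LMO2 (lower, 1 of 6 blood genes) and CLDN5 (higher, 1 of 20 endothelial genes). PAX8 and CDH16 (higher, 2 of 12 kidney genes) and TFAP2B (higher, 1 of 7 neural crest genes) were also called. These shares were 16.7%, 5.0%, 16.7% and 14.3% in that order, and the endothelial one was near the 5.1% of all tested genes. The calls of LMO2, CLDN5 and PAX8 were lost without either SUZ12-/- sample or the second EZH2-/-/EZH1-/- sample, and that of TFAP2B without the first SUZ12-/- sample.

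Among glycolysis and hypoxia genes, 2 of 23 were called higher and 1 lower (13.0%, against 5.1% of all tested genes, median 0.30). LDHA, which makes lactate, was at 668 and 686 TPM in the SUZ12-/- samples, near its 590 and 612 TPM in WT H1, and at 170 and 122 TPM in the EZH2-/-/EZH1-/- samples (2.22, SE 0.255). NDRG1, a stress-induced gene, was at 109.2 and 114 TPM against 29.2 and 26.5 TPM. ADM, which encodes the vessel-relaxing peptide adrenomedullin, was lower, at 33.1 and 28.0 TPM against 196 and 81.0 TPM. The calls of NDRG1 and ADM were lost without either SUZ12-/- sample, and that of ADM also without the first EZH2-/-/EZH1-/- sample.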

How the data were processed

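RNA-seq libraries of H1 hESCs and 5 knockout lines, with 2 samples each, were analysed from the TPM values that the authors deposited for 33382 genes per sample. Per the study's methods, reads were mapped to human mRNA reference sequences with Bowtie2 and RSEM, and builds named in the submitters' processing notes are GRCh38, hg38 and hg19. TPM keeps no depth, so depth and its precision are unknown. The 12 samples were joined by Ensembl identifier, and the 7 time course samples were not used. The study tested read counts, which are not analysed here. Limma 3.58.1 (R 4.3.3) was fitted to log2(TPM + 1) with 1 mean per line, trend and robust variance, for genes with at least 1 TPM in 2 of the 4 samples. A run on simulated data was required only to call no changed gene with the wrong sign, which does not bound false calls. The alternatives were 14 planned ones (pseudocount, filters, samples, scaling, variance, thresholds, each sample left out) and 3 chosen after seeing the data (the SUZ12-/- samples averaged to 1, a weight per line, and a replicate block).

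Genes named were the 4 targeted subunits, POU5F1, NANOG, SOX2, AFP and CDX2, the 12 called genes with the largest non-overlapping difference in each direction, and called members of each of 32 gene lists (or up to 4 of the highest where none was called). Members and lists were chosen with earlier results of these data known. CEBPZ, CDKN2A, H19, COL1A1, TTR, BMP4, ID1 and GATA3 were added after their values were seen. Gene positions are from GENCODE 44 and promoters from RefSeq (GRCh38.p14). No protein sequences were used. Results of some genes that meet this rule are not reported here.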

Additional observations from a re-analysis of the deposited data

How the results depend on the processing

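The counts of genes called higher and lower in SUZ12-/- H1 (658 and 230) depended on the fit. The main filter lets a gene pass on the samples of 1 line alone. Requiring 1 TPM in all 4 samples gave 297 higher genes. That setting leaves out genes under 1 TPM in any of the 4 samples, among them AHSG, MUC13 and CFI. A fit of only the 4 samples gave 22 and 2, and one of the 6 samples of the 3 null lines gave 253 and 61. An FDR of 5% with no fold cutoff gave 1681 and 1193, and a test against a 1.5-fold change gave 431 and 87. Averaging the SUZ12-/- samples to 1 gave 389 and 72, and a weight per line gave 424 and 105. With 1 sample left out, where the lone sample is assumed to vary like the other lines, counts ran from 397 to 1310 higher and from 71 to 388 lower. The cause was not tested. Median ratio scaling moved the median of all tested genes by -0.026 (log2), and the share of calls that were higher was 75.2% against 74.1%. Calls at 11 higher genes and 1 lower gene were made in all 14 planned and 3 added alternatives. The difference at SOX2 was -1.25 without the first EZH2-/-/EZH1-/- sample and 0.41 without the second, and that at CDX2 was 0.66 and -1.36. Without a test, the spread between the EZH2-/-/EZH1-/- samples of 0.518 became 0.617 with a pseudocount of 0.1, 0.391 with no filter, 0.512 with 1 TPM in all 4 samples, 0.505 with 1 TPM in 2 of 12 samples and 0.47 with median ratio scaling. The gap between the medians of chromosomes 4 and 19 (0.37) ran from 0.164 to 0.53 with 1 sample left out. The samples of different lines share only a number, 1 or 2, which the sample titles do not pair. With that number as a replicate block, an alternative chosen after seeing the data, 669 genes were called higher and 228 lower. The deviations of same-numbered samples correlated over genes at 0.00252 between the SUZ12-/- and EZH2-/-/EZH1-/- lines, and over 0.1 in 1 of 15 pairs of lines. Depth is unknown, which limits what can be said of genes near 1 TPM.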

Other observations

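Genes of this section were chosen after their values were seen. They are single genes, with no list or test of a group behind them. ASNS, asparagine synthetase, was at 37.1 and 38.8 TPM in the SUZ12-/- samples and 250.8 and 249.9 TPM in the EZH2-/-/EZH1-/- samples (-2.69, SE 0.297, log2), with 180.1 and 148 TPM in WT H1. CHAC1, which breaks down glutathione, was at 11.5 and 12.8 TPM against 119 and 76.7 TPM, and ATF3, a stress-induced transcription factor, at 42.7 and 48.8 TPM against 272 and 269 TPM (-2.54, SE 0.187). The EED-/- samples lay between them at ASNS, with 84.6 and 171 TPM, and at ATF3, with 112 and 133 TPM.

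CTGF, which encodes a matricellular growth factor, was at 296 and 271 TPM in the SUZ12-/- samples against 2446 and 1251 TPM, ANKRD1 at 69.8 and 55.6 TPM against 821 and 269 TPM, and EDN1, the endothelin gene, at 16.6 and 15.6 TPM against 203 and 63.4 TPM. The calls of CTGF and EDN1 were lost without either SUZ12-/- sample, and that of ANKRD1 without the second. MDM2, the ligase that degrades p53, was at 64.8 and 60.04 TPM against 241 and 874 TPM, and CDKN1A, a p53 target, at 179 and 175 TPM against 631 and 716 TPM. CDKN1A was not called (adjusted p = 0.0389 by limma), and the MDM2 call was lost without either SUZ12-/- sample and without the second EZH2-/-/EZH1-/- sample.

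Other genes of liver and gut that were not on the lists also stood higher in SUZ12-/- H1. RBP2, the retinol binder of gut cells, was at 120.3 and 122 TPM against 1.21 and 0.85 TPM. CDH17, an intestinal cadherin, was at 81.6 and 87.0 TPM against 1.08 and 0.70 TPM. CFB, a complement protease, was at 89.0 and 99.4 TPM against 1.25 and 0.69 TPM. All 3 lay at or below 7.08 TPM in EED-/- H1.

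Neighbours differed in the size of change. AFM, the gene after AFP on chromosome 4, was at 1.82 and 1.11 TPM against 0.07 TPM and a listed 0, and was not called because the change was under 3-fold on the log2(TPM + 1) scale. CST2, a further cystatin beside CST1 and CST4, was lower, at 0.95 and 0.84 TPM against 10.2 and 12.0 TPM. By chromosome, the median difference ran from -0.142 (log2) on chromosome 19 to 0.228 on chromosome 4. The first EZH2-/-/EZH1-/- sample exceeded the second in the median of every chromosome, by 0.164 to 0.489, and the part of this in the chromosome medians was not tested. The gap of 0.37 between chromosomes 4 and 19 was 0.164 without the second EZH2-/-/EZH1-/- sample.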
